A study of Capra hircus with 2 samples.

Results

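miR-203 and miR-205 are a pair of microRNAs (miRNAs) known from epithelia, and their reads were followed here in the lactating mammary gland of Laoshan dairy goats (Capra hircus). Their members are the sequence tags, that is, the distinct reads, that hold nt 2 to 17 of the mature miRNA. Of 659118 tags in all, 42 belonged to miR-203 and 114 to miR-205. The study took gland tissue 90 days after kidding, at peak lactation, and 210 days after it, at late lactation, from goats aged 4 years in lactation 3. RNA of 5 goats was pooled per stage and 1 small RNA library was sequenced from each pool, so that no difference below has a replicate check and no p-value is given. Whether the same goats gave both pools is not clear from the methods. The libraries held 19044002 clean reads at peak and 7385833 at late lactation. Levels are reads per 1000000 clean reads (RPM), and 1 read stood for 0.0525 RPM at peak and 0.135 RPM at late lactation. All intervals are 95% intervals for counting error only, because PCR copies of 1 molecule are counted as separate reads and the pools hide the spread between goats.

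A miRNA is cut from a hairpin precursor and loaded into an Argonaute protein, where bases 2 to 8 from its 5′ end, the seed, lead the pairing with target mRNAs. A shift of the 5′ end by a single base therefore changes the seed, whereas bases gained or lost at the 3′ end do not. miR-203 is best known from the skin, where it is high in differentiating keratinocytes and represses p63, a transcription factor of basal epithelial cells. miR-205 is high in basal cells of stratified and glandular epithelia, the mammary gland included, and acts with the miR-200 family on ZEB1 and ZEB2, repressors of the epithelial cadherin gene.

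The forms that held at least 5% of the reads of a miRNA in either library are shown first, since the differences below lie in these sequences. They are deposited tags, with T for the U of the RNA and with the seed of each form in capitals. The name gives the first base and the length of the form, and base 1 is the most upstream start that held at least 10% of the reads.
miR-203 from base 1, 22 nt: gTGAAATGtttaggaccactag
miR-203 from base 1, 23 nt: gTGAAATGtttaggaccactaga
miR-203 from base 2, 21 nt: tGAAATGTttaggaccactag
miR-203 from base 2, 22 nt, last base t: tGAAATGTttaggaccactagt
miR-203 from base 2, 22 nt, last base a: tGAAATGTttaggaccactaga
miR-205 from base 1, 21 nt: tCCTTCATtccaccggagtct
miR-205 from base 1, 22 nt: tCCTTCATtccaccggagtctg
miR-205 from base 1, 23 nt, last base t: tCCTTCATtccaccggagtctgt
miR-205 from base 1, 23 nt, last base a: tCCTTCATtccaccggagtctga
The 5 forms of miR-203 carry 2 different seeds, and the 4 forms of miR-205 share 1 seed. These forms held 89.4% of the miR-203 reads at peak and 89.9% at late lactation, and 93.3% and 91.3% of the miR-205 reads.

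The levels of miR-203 and miR-205 moved in opposite directions between the stages. miR-203 had 1567 reads at peak and 159 at late lactation, which was 82.3 RPM (78.3 to 86.5, exact Poisson interval) and 21.5 RPM (18.3 to 25.1). Its level was thus 3.82-fold lower at late lactation (3.25 to 4.53), a log2 ratio of late over peak of -1.93 (-2.18 to -1.70, exact binomial interval). miR-205 had 4815 and 4968 reads, which was 253 RPM (246 to 260) at peak and 673 RPM (654 to 692) at late lactation. The level of miR-205 was 2.66-fold higher at late lactation (2.56 to 2.77), a log2 ratio of 1.41 (1.35 to 1.47). The intervals of the 2 stages did not overlap for either miRNA. In bulk tissue, fewer cells of a type and less of a miRNA per cell cannot be told apart.

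A comparison of the pair within each library does not depend on the library totals. There were 3.07 miR-205 reads per miR-203 read at peak lactation (2.90 to 3.26) and 31.2 at late lactation (26.7 to 36.8). The ratio was thus 10.2-fold higher at late lactation (8.59 to 12.1, exact conditional interval), a log2 change of 3.35 (3.10 to 3.60). miR-205 was the more abundant of the pair at both stages.

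Both miRNAs passed the 2-fold limit set here for a call, 1 in each direction, and such ratios were common in these libraries. To give a background, tags were grouped by a shared nt 2 to 17. A tag that differs inside this stretch falls in another group, so that 1 miRNA can give more than 1 group. A group was taken as miRNA-like where at least 80% of its reads were 20 to 24 nt long and at least 80% began at a pair of neighbouring bases. Of 1878 miRNA-like groups with at least 1 RPM in one library, 656 (34.9%) were at least 2-fold higher and 450 (24%) at least 2-fold lower at late lactation. Among them, 224 groups had a lower log2 ratio than miR-203, and 542 had a higher one than miR-205. The median over all groups was 0.21. By level, miR-203 ranked 136 at peak and 293 at late lactation, and miR-205 ranked 88 and 61. Among the 162 groups that reached 100 RPM, the ratio of miR-205 was exceeded by 41 groups, and 7 groups lay lower than miR-203, which itself did not reach 100 RPM. Over the 1878 groups, both ratios were therefore within the bulk of the groups past 2-fold in the same direction. Only against the 162 groups that reached 100 RPM, a set without miR-203, was the ratio of miR-203 nearer the edge.

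**Figure D1:**
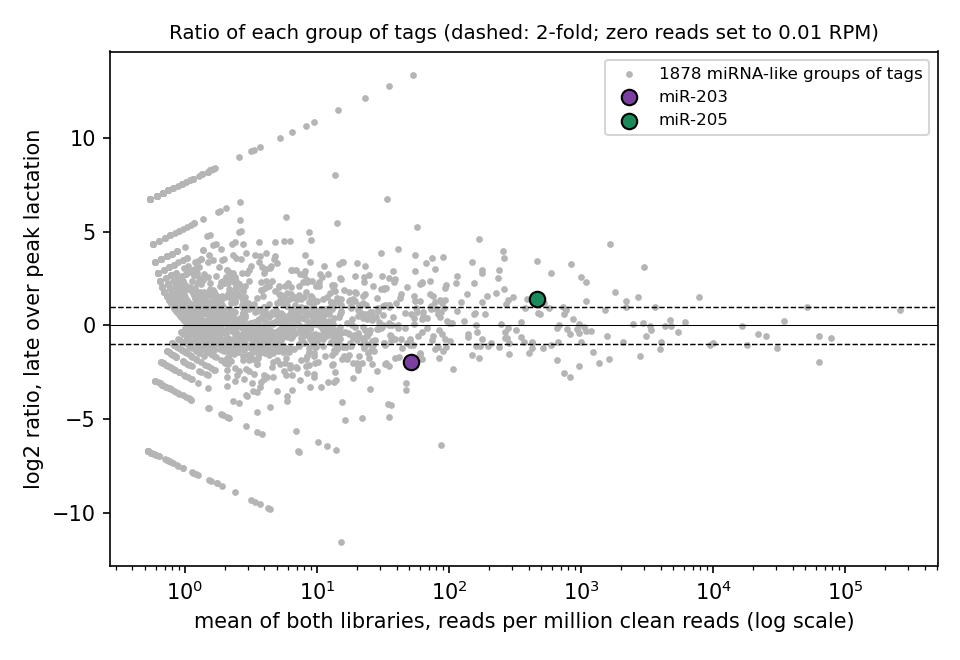
Log2 ratio of late over peak lactation (vertical axis) against the mean level of both libraries in RPM (horizontal log axis) for 1878 miRNA-like groups of tags, each a grey point, with 0 reads set to 0.01 RPM and the 2-fold limits dashed. miR-203 (purple, -1.93) lay under the lower limit and miR-205 (green, 1.41) over the upper limit, with many grey points beyond both.

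The start of the read divided miR-203 into a pair of seeds. At peak lactation, 35.9% of its reads (33.5 to 38.3%) started at base 1 and 63.9% (61.4 to 66.3%) at base 2. At late lactation, 41.5% (33.8 to 49.6%) started at base 1 and 58.5% (50.4 to 66.2%) at base 2, so that the shares of the stages overlapped within their intervals. The reads from base 1 went from 29.5 to 8.94 RPM (log2 ratio -1.72, -2.11 to -1.35) and those from base 2 from 52.6 to 12.6 RPM (-2.06, -2.38 to -1.75). Both seeds were lower at late lactation, and a difference between their ratios was not detectable at this depth. Upstream of base 1 began 4 reads at peak and 0 of 159 at late lactation. For the latter, a limit of 3 reads is a share of 1.89%, and the exact binomial interval reaches 2.29%.

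Few groups started in this way. Among 335 miRNA-like groups with at least 100 reads in both libraries, 58 (17.3%) had at least 10% of their reads at each of base 1 and base 2 in both libraries. Only 11 of the 335 had a larger share of reads at base 2 than miR-203 at peak lactation. Of the counted miR-205 reads, in contrast, 99.8% began at base 1 at peak (99.6 to 99.9%) and 98.0% at late lactation (97.6 to 98.4%). At base 2 began 3 and 8 reads, and any that began after base 2 could not be counted.

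A small part of miR-205 began upstream of base 1, and this part was larger at late lactation. It held 7 reads at peak (0.145%, 0.0585 to 0.299%) and 92 reads at late lactation (1.85%, 1.5 to 2.27%). The late library also had far more reads removed as contaminated by the 5′ adaptor, 14% of the high-quality reads against 0.0494% at peak. Over the 335 groups the median share upstream of base 1 was 0.178% at peak and 0.714% at late lactation, it was higher at late lactation in 212 groups, and in 62 groups it was up by more than in miR-205. The part of the adaptor reads in this difference was not tested.

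The 3′ ends of miR-203 differed with its start. The reads from base 1 most often ended at base 22, in 52.8% at peak and 60.6% at late lactation. The reads from base 2 most often went 1 base further with T, in 52.1% at peak and 38.7% at late lactation. Among reads with 1 added T or A, T made up 30.2% (24.5 to 36.4%) from base 1 and 82.9% (79.7 to 85.7%) from base 2 at peak lactation. The order was the same at late lactation, at 20% (4 of 20 reads, 5.73 to 43.7%) and 57.1% (36 of 63 reads, 44.0 to 69.5%), with intervals that did not overlap. The later start thus went with a later end. The mean last base was 22.4 from base 1 and 22.7 from base 2 at peak, a gap of 0.296 nt, and the gap was 0.374 nt at late lactation. Of the 58 groups with both starts, 44 had a later mean end with the later start in both libraries, with a median gap of 0.498 nt at peak and 0.566 nt at late lactation.

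Among the forms of miR-203, the lowest ratio belonged to a form with an added T. The form from base 2 with a last t, the most abundant at peak, had 522 reads (27.4 RPM) at peak and 36 (4.87 RPM) at late lactation, a log2 ratio of -2.49 (-3.02 to -2.00). The form from base 2 with a last a had 108 reads (5.67 RPM) and 27 (3.66 RPM), a log2 ratio of -0.63 (-1.30 to -0.014). The intervals of these forms, which share the start and the length, did not overlap. At late lactation the form from base 1 of 22 nt led instead, with 297 reads (15.6 RPM) at peak and 40 (5.42 RPM) at late lactation (-1.53, -2.04 to -1.05). The form from base 2 of 21 nt had 305 and 24 reads (-2.30, -2.97 to -1.70), and the form from base 1 of 23 nt had 169 and 16 (-2.03, -2.87 to -1.29). All 5 forms were lower at late lactation, 4 of them by more than 2-fold. Summed over both starts, reads with 1 added T went from 31.2 to 5.42 RPM (-2.53, -3.03 to -2.07) and those with 1 added A from 14.5 to 5.82 RPM (-1.32, -1.82 to -0.85). The share of T among them was 68.2% (65.0 to 71.3%) at peak and 48.2% (37.1 to 59.4%) at late lactation. The added T and A of miR-203 were not ranked against those of other groups, which are counted below for miR-205. Whether an added T or A is encoded in the hairpin or added to the finished miRNA was not tested, because the hairpin was not used here.

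miR-205 differed between the stages in its 3′ end, and the shorter forms had the higher ratios of late over peak. The form of 23 nt with a last t led at peak lactation with 2156 reads (113 RPM) and had 1383 (187 RPM) at late lactation, a log2 ratio of 0.73 (0.63 to 0.82). The form of 22 nt led at late lactation, with 1342 reads (70.5 RPM) at peak and 2133 (289 RPM) at late lactation, a log2 ratio of 2.04 (1.94 to 2.13). The share of the first form went from 44.8 to 27.8% of the miR-205 reads, and that of the second from 27.9 to 42.9%. The form of 21 nt had 152 reads (7.98 RPM) and 611 (82.7 RPM), a log2 ratio of 3.37 (3.12 to 3.64). The form of 23 nt with a last a had 841 reads (44.2 RPM) and 410 (55.5 RPM), a log2 ratio of 0.33 (0.16 to 0.50). The 4 forms were thus all higher at late lactation, but only those of 21 and 22 nt by more than 2-fold, and they share 1 seed. Reads with 1 added G went the other way, with 112 reads (5.88 RPM) at peak and 5 (0.677 RPM) at late lactation, a log2 ratio of -3.12 (-4.77 to -1.85). Reads that went 2 or more bases past base 22 had 142 and 164 reads (1.57, 1.24 to 1.91), near the ratio of the whole miRNA.

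**Figure D2:**
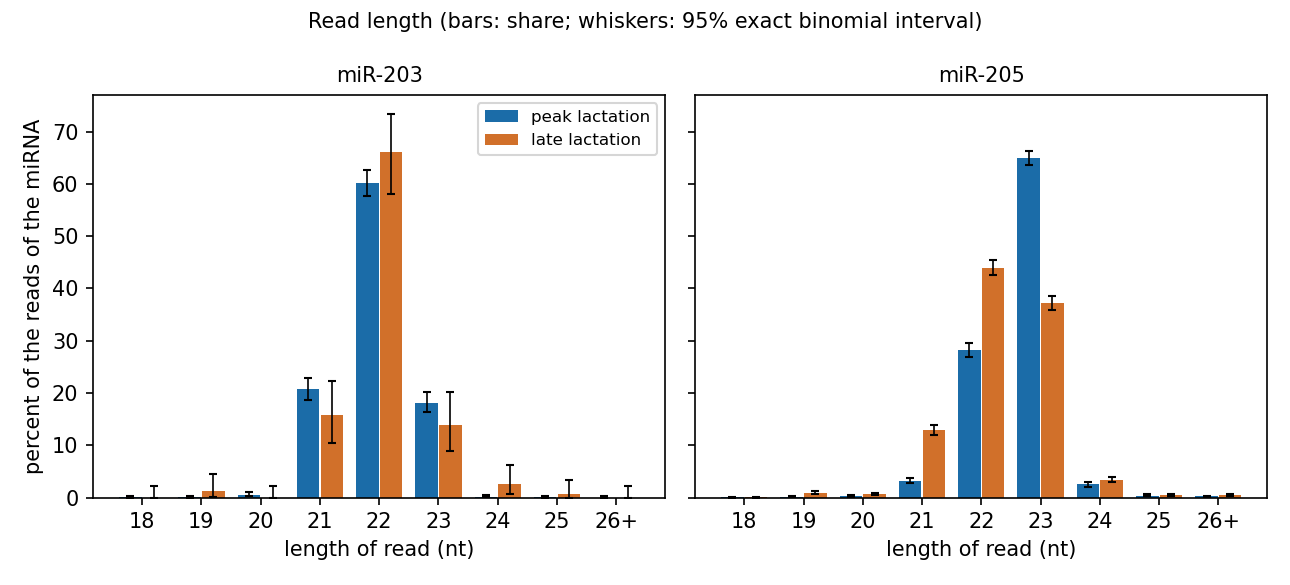
Share of the reads of miR-203 (left) and miR-205 (right) by read length in nt at peak (blue) and late (orange) lactation, 1 library each, with exact binomial 95% intervals as whiskers. In miR-205 the reads of 23 nt went from 65.0% to 37.2% and those of 22 nt from 28.2% to 44.0%, while in miR-203 the reads of 22 nt led at both stages with 60.2% and 66.0%.

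The mean length of miR-205 reads was 22.7 nt at peak and 22.3 nt at late lactation, a change of -0.380 nt. That of miR-203 was 22 nt at both stages, a change of 0.047 nt. Reads were also shorter in the late library as a whole, at 21.7 nt against 22.3 nt, and reads removed because they were shorter than 18 nt made up 4.14% of the high-quality reads against 0.759%. Over the 335 groups, 204 were shorter at late lactation, the median change was -0.057 nt, the 10th percentile was -0.452 nt, and 40 groups shortened by more than miR-205. The part of the library in the shorter miR-205 was not tested.

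Set beside the same ends in other groups, the lower share of the added T in miR-205 was among the largest differences in percentage points. For each of 328 groups, ends were counted from its shortest form with at least 20% of the reads. The share with 1 added T was lower at late lactation in 156 groups and higher in 121, and in 2 groups it was down by more than in miR-205. The share with 1 added A was lower in 133 and higher in 176, and was down by more than in miR-205 in 9 groups. The share that was 1 base shorter was up by more than in miR-205 in 16 groups. The median share with 1 added T was 0.805% at peak and 0.913% at late lactation, so that most groups had far less of this end than miR-205. A group with so low a share cannot fall by as many points as miR-205. Relative changes of these ends were not ranked.

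**Figure D3:**
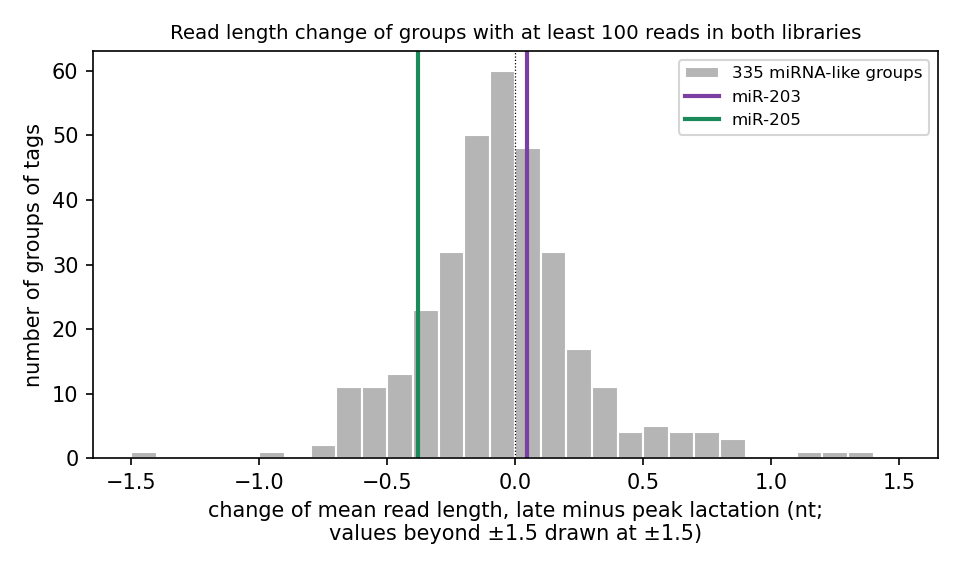
Change of mean read length, late minus peak lactation, in nt (horizontal axis) over 335 miRNA-like groups with at least 100 reads in both libraries (grey bars, number of groups). miR-205 (green line) lay at -0.380 nt, toward the short side of the groups, and miR-203 (purple line) at 0.047 nt, near their middle.

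The bases added to miR-205 also differed in composition between the stages. Among miR-205 reads from base 1 with 1 added T or A, T made up 71.9% (70.3 to 73.5%) at peak and 77.1% (75.1 to 79.1%) at late lactation. The share of T was thus higher at late lactation in miR-205. In miR-203 it was lower over both starts summed and from base 2, with intervals of the stages that did not overlap, while from base 1 the intervals overlapped.

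Of the other epithelial miRNAs on the list, miR-141 was higher at late lactation, as miR-205 was, and the other members with a tag group had ratios under 0 on the log2 scale. The list holds the miR-200 family, which keeps ZEB1 and ZEB2 low, the miR-183 cluster, which is known from sensory epithelia, and miR-375, known from secretory and endocrine cells. It was drawn up with earlier results of these data known. For miR-375, the study reported a higher level at late lactation by quantitative RT-PCR of individual goats, and described its sequencing as going the same way. Here miR-375 and miR-96 were not assigned to a group of tags, and 7 of the 9 names were. Of the 7, 0 were at least 2-fold higher and 4 at least 2-fold lower at late lactation, against 34.9% and 24% of all miRNA-like groups, and their median log2 ratio was -1.03. The 4 were miR-200c (24151 to 11691 RPM, log2 ratio -1.05), miR-429 (266 to 126 RPM, -1.08), miR-183 (233 to 109 RPM, -1.10) and miR-182 (795 to 389 RPM, -1.03). These 4 lay close to the 2-fold limit, and with totals that leave out the 10 most abundant tags 1 of them, miR-183, stayed past it and miR-141 passed it upward. The other three were miR-200a (-0.28), miR-200b (-0.01) and miR-141 (2452 to 4807 RPM, 0.97), which had a ratio just under the limit. The log2 ratio of miR-203 lay under those of all 7, and that of miR-205 over those of all 7.

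**Figure D4:**
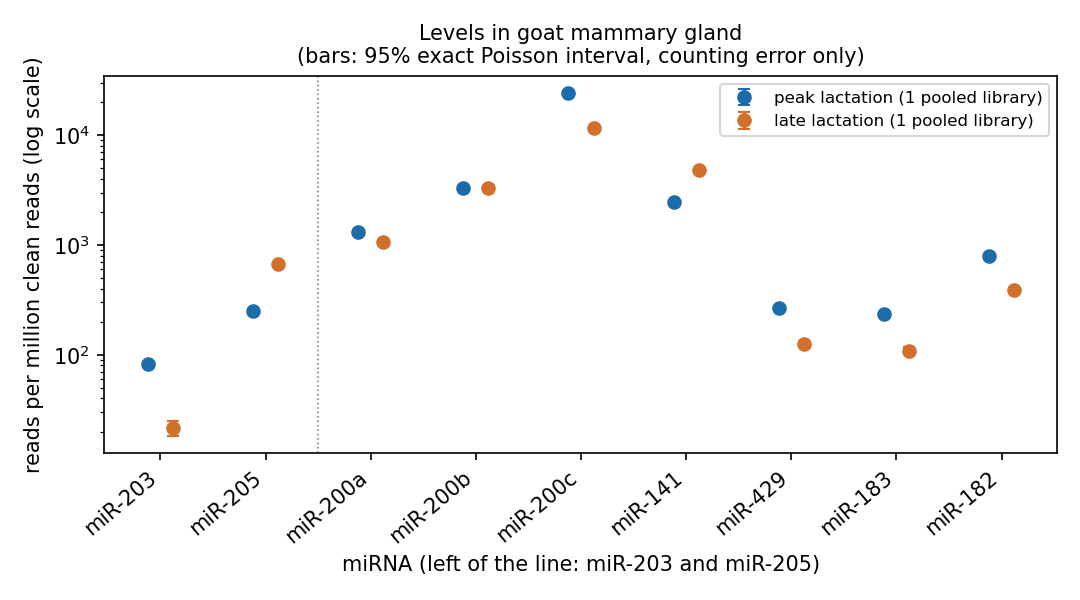
Levels of miR-203, miR-205 and 7 other epithelial miRNAs in RPM (log axis) at peak (blue) and late (orange) lactation, 1 pooled library each, with exact Poisson 95% intervals that are mostly smaller than the points. miR-203 was the lowest of the 9 at both stages (82.3 and 21.5 RPM), and miR-205 went from 253 to 673 RPM.

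By level, miR-205 stood between miR-429 and miR-183 at peak lactation and between miR-200a and miR-182 at late lactation. miR-203 was under all of them at both stages, and miR-200c was over all of them. Levels of different miRNAs are compared with care here, because ligation of adaptors favours some sequences over others.

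Marker miRNAs of other cell types differed between the libraries, and members of the same list did not always go the same way. All 5 markers of mammary epithelium, the miR-200 family, were found at 31494 RPM in sum at peak and 20997 RPM at late lactation, with 2 at least 2-fold lower, 3 neither and a median log2 ratio of -0.28. Most of this sum was miR-200c, and the other 4 summed to 7343 RPM at peak and 9306 RPM at late lactation, a split made after the values were seen. miR-145, a marker of smooth muscle and myoepithelium, the basal layer of the gland, had 158 RPM at peak and 1528 RPM at late lactation (log2 ratio 3.28), while miR-143 of the same list had 189036 and 331206 RPM (0.81). Among leukocyte markers, miR-223 of myeloid cells went from 13.1 to 167 RPM (3.67), miR-142 from 213 to 569 RPM (1.42), and miR-155 from 951 to 706 RPM (-0.43), with miR-150 not assigned. The leukocyte list summed to 1177 RPM at peak and 1442 RPM at late lactation. Of the red blood cell markers, miR-451 had a log2 ratio of 1.01 and miR-486 of -0.61, with miR-144 not assigned, and they summed to 1882 and 3207 RPM. miR-126 of endothelium had a log2 ratio of -1.05, and miR-1 of skeletal muscle had one of -0.86, at 2671 and 1468 RPM. miR-133a and miR-206 of skeletal muscle and the 3 stroma markers, miR-199a, miR-199b and miR-214, were not assigned. The part of these cell types in the levels of miR-203 and miR-205 was not tested.

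The groups with at least 100 RPM in one library whose log2 ratio was nearest are shown by their leading tag, again with bases 2 to 8 in capitals, so that their seeds can be set against those above.
Nearest to miR-203: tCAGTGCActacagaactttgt
Second nearest to miR-203: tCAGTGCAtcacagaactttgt
Next nearest to miR-203: cACCCGTAgaaccgaccttgc
Nearest to miR-205: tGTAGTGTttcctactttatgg
Second nearest to miR-205: cAGCAGCAattcatgttttga
Next nearest to miR-205: cAGGCTAGgagaaatgattgga
None of these shares a seed with miR-203 or miR-205. The first 2, which share their seed with each other, had reads within 5% of the counts listed under miR-148a-3p and miR-148b-3p. The most abundant went from 100858 to 25718 RPM, with a log2 ratio of -1.97 that differed from that of miR-203 by 0.037. The other two had ratios of -2.00 and -1.82, and the last of them matched the counts of miR-99b-5p. The group nearest to miR-205 was the one assigned to miR-142, at 1.42, followed by one that matched the counts of miR-424 (47.6 to 123 RPM, 1.37) and by one that matched the counts of miR-664-5p (158 to 404 RPM, 1.35). The sequence of the last also overlaps the primer that the study made for a candidate miRNA, so its name is uncertain. Likeness was the absolute difference of the log2 ratios, which rests on 1 library per stage.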

How the data were processed

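Total RNA of 5 goats was pooled per stage, and RNA of 18 to 30 nt was ligated to adaptors and sequenced on an Illumina 1G analyzer. The authors removed low-quality, adaptor and short reads, collapsed identical reads, and deposited the counts of reads per distinct tag, not normalized. They also deposited the counts of reads at each filtering step. The tools behind them were not given in the sources used here. Counts were divided by clean reads (RPM), with an upper limit for a count of 0 (3 reads) of 0.158 RPM at peak and 0.406 RPM at late lactation.

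The tags carry no names, and a reference of miRNA sequences was not used here. The group of a name was therefore the single miRNA-like molecule whose reads lay within 5% of the counts listed by the study under that name in both libraries, for entries of at least 1000 reads. This assigned 18 of 27 names. The entry miR-203-3p had 15 stretches of nt 2 to 17 within 5%, all of which left 1 molecule, and miR-205-5p had 8, likewise. The entry miR-205 without an arm was not used, and its counts lay within 5% of the group assigned to miR-142 instead. These limits were set after the tags had been seen, and the sequences found are those generally known as miR-203 and miR-205. The opposite arms were not analysed. The members and lists were chosen with earlier results of these data known. Beside the members and lists, the text names forms of at least 5% and the 3 nearest groups with at least 100 RPM.

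Intervals are exact binomial, Poisson or conditional. With 1 library per stage no test across samples was possible, so neither edgeR nor DESeq2 was used for calls. Alternatives covered library totals, TMM factors (edgeR 4.0.16), size factors (DESeq2 1.42.0, R 4.3.3), the match of tags and the filter. The scripts were tested on simulated data. Python 3.11.15, numpy 2.4.6, scipy 1.17.1 and matplotlib 3.10.9 were used.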

Additional observations from a re-analysis of the deposited data

How the results depend on the processing

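The log2 ratio of miR-203 ranged from -1.98 to -1.53 over 11 alternatives and that of miR-205 from 1.39 to 2.04, and both passed 2-fold in the same direction in all 11. The change of their ratio to each other ranged from 3.15 to 3.56 over 6. The 22-nt tag from base 1 alone gave -1.53 for miR-203 and 2.04 for miR-205, because it leaves out the other forms. Totals without the 10 most abundant tags gave 1.5 for miR-205, since they add 0.085 to every log2 ratio. The number of groups past 2-fold moved with what was tested, from 656 higher and 450 lower of 1878 in the main setting. From 10 RPM, 172 of 551 groups were higher and 130 lower. With no limit on level beyond reads in both libraries, 2741 of 5663 miRNA-like groups were higher and 730 lower. In that setting a group with 1 read in each library, 0.0525 RPM at peak and 0.135 RPM at late lactation, already counts as higher. Of 26175 single tags, 8045 were higher and 10486 lower. Of 7324 groups of tags, miRNA-like or not, 2918 were higher and 1932 lower, an alternative chosen after seeing the data. Totals of tags of 20 to 24 nt were also added then. The 37 tags of miR-203 at peak lactation came to an expected 13.1 at its 159 reads of late lactation, where it had 16 tags. miR-205 had 55 tags at peak and 88 at late lactation, and 86.7 of the latter were expected at equal reads. The higher tag number thus went with depth in miR-203 but not in miR-205. No paired analysis was possible because each stage has 1 library. Totals over reference miRNAs and 3′ ends set against the hairpin were not run. Depth limits the forms of miR-203 at late lactation, which rest on 159 reads.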
